A study of Mus musculus with 30 samples.

Results

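Basal mammary cells of virgin mice in which Rank had been deleted from the luminal layer were compared with basal cells of virgin controls. The members are the 7 virgin basal libraries among the 30 libraries of the series, taken by their labelled stage, lineage and genotype, with 4 from K8iΔRank mice (K8rta:TETO CRE:RANK fl/fl:mTmG) and 3 from K8imTmG mice (K8rta:TETO CRE:mTmG). Both genotypes carried the doxycycline-inducible Cre driven through the Krt8 promoter and the mTmG reporter, and both received doxycycline at 1 mg/ml in the drinking water between weeks 3 and 8 of age per the labels (the study's methods give a later start), so that the floxed Rank allele is what the labels set apart. All mice were females on a mixed background, and each library came from a different mouse (7 mice). Basal cells were sorted from the gland by flow cytometry, and polyadenylated RNA was read by 3′ tag sequencing with unique molecular identifiers, so a value counts transcripts through their 3′ ends. Every value below is a normalized count, the deduplicated reads of a gene divided by the size factor of its library, and differences are on the scale log2(normalized count + 1), given as K8iΔRank minus K8imTmG ± standard error.

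Rank (Tnfrsf11a) is the receptor of the cytokine Rankl (Tnfsf11). In the mammary gland, hormone-sensing luminal cells make Rankl under progesterone, and Rank on neighbouring epithelial cells passes the signal through Traf adaptors and the IκB kinases to NF-κB. The basal layer holds contractile myoepithelial cells that lie on the basement membrane, express keratins 5 and 14, smooth muscle actin and the transcription factor p63, and also carry Rank. Because the Krt8 promoter is active in luminal cells, the basal cells examined here are by design left with an intact Rank gene beside luminal neighbours that lacked it, and the comparison asks what differs in those basal cells. Bulk samples cannot tell fewer cells of a type from less RNA per cell.

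The sorted cells carried the markers of their label. Krt5 was read at 845, 936, 1149 and 1463 normalized counts in K8iΔRank replicates 1 to 4 and at 1079, 1244 and 1309.6 in K8imTmG replicates 1 to 3, against 2.62 to 17.7 in the 6 virgin luminal libraries. Trp63, which encodes p63, was at 64.6, 225, 198 and 108 in the K8iΔRank libraries and at 188, 165 and 239 in the controls, against 0.641 to 2.64 in luminal libraries. All 19 basal markers were above 0 in all 7 libraries, and their summed level was 17103 to 21548 in K8iΔRank and 17042 to 21007 in K8imTmG libraries. None of the 19 passed the test between genotypes, beside 8.99% of all genes tested. Under quantile normalization 4 were called higher (595 of 10616 over all genes). After thinning to a common total 5 were called higher (1014 of 10616 over all genes). Krt8 was lower than in luminal libraries (1704 to 3134) but present, at 455, 259.8, 253 and 621 in K8iΔRank and 664, 351 and 201 in K8imTmG, and the groups overlapped. The sort took CD49f-high CD24-low cells and excluded CD45 and CD31. Among other cells of the gland, the endothelial marker Pecam1 was at 99.2, 56.4, 92.8 and 54.8 in K8iΔRank and 67.5, 103 and 21.7 in K8imTmG libraries, and the summed endothelial markers ranged from 362 to 1350 (median 909.7) and from 228 to 730 (median 331). These groups overlapped, while 7 of the 8 endothelial markers were positive in sign (5620 of 10616 over all genes), with a median difference of 0.99. The part of endothelial RNA in the differences below was not tested. None of the 8 endothelial, 9 fibroblast (summed 738 to 1122 against 1013 to 1039) and 3 pericyte markers (166 to 344 against 290.1 to 389) passed the test, beside 8.99% over all genes. Lists this short can hold no call at that share. Of 7 leukocyte markers, the lysozyme gene Lyz2 alone passed it (−1.70 ± 0.46, adjusted p = 0.0479), with the 7 summed to 121 to 214 against 141 to 229.8. Ptprc and Adipoq were not analysed here.

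No difference in Rank itself was detected in the basal cells. Tnfrsf11a (chromosome 1, 105708358 to 105777170, GRCm39) was read at 45.01, 78.1, 69.8 and 68.7 normalized counts in K8iΔRank and at 66.1, 33.1 and 54.3 in K8imTmG libraries. The groups overlapped, and the difference was 0.38 ± 0.32 (adjusted p = 0.454, limma). Virgin luminal libraries held 9.57 to 23.8, so the basal cells were above them in every library. The 3′ tags report the end of the transcript and not the floxed exons, so these values do not check the deletion. The ligand gene Tnfsf11 was close to 0 in the basal cells (0, 0.620, 0.677 and 0 against 1.44, 0 and 0, all within 3 reads) and reached 148 in a virgin luminal library.

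Before any difference is read, the libraries have to be set out by depth and by a split that runs through the series. Depth was 1200781, 2104379, 1934538 and 1323739 reads in K8iΔRank replicates 1 to 4 but 1172427, 437873 and 340445 in K8imTmG replicates 1 to 3, so that 3 reads, taken as the floor, were worth 1.86 to 3.46 normalized counts in the former and 4.31, 12.4 and 16.3 in the latter. Clec2d, which encodes a C-type lectin ligand of natural killer cell receptors, was read at 3.46, 8.68, 2.03 and 2.15 in K8iΔRank libraries, 22 reads in all, and at 165, 149 and 152 in K8imTmG libraries. Across the 30 libraries Clec2d was either at 8.68 or lower (16 libraries) or at 65.6 or higher (14 libraries), and no library lay near the limit of 30. All 4 K8iΔRank libraries were on the low side and all 3 controls on the high side, so within these 7 libraries the split and the genotype cannot be told apart. Other groups of the series fell differently. The 3 virgin luminal controls were low and the 3 virgin luminal K8iΔRank libraries high, the reverse of the basal cells, with 5 mice giving both a basal and a luminal library. In parous basal cells 2 K8iΔRank libraries were low and 2 high, while all 4 controls were high.

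**Figure D1:**
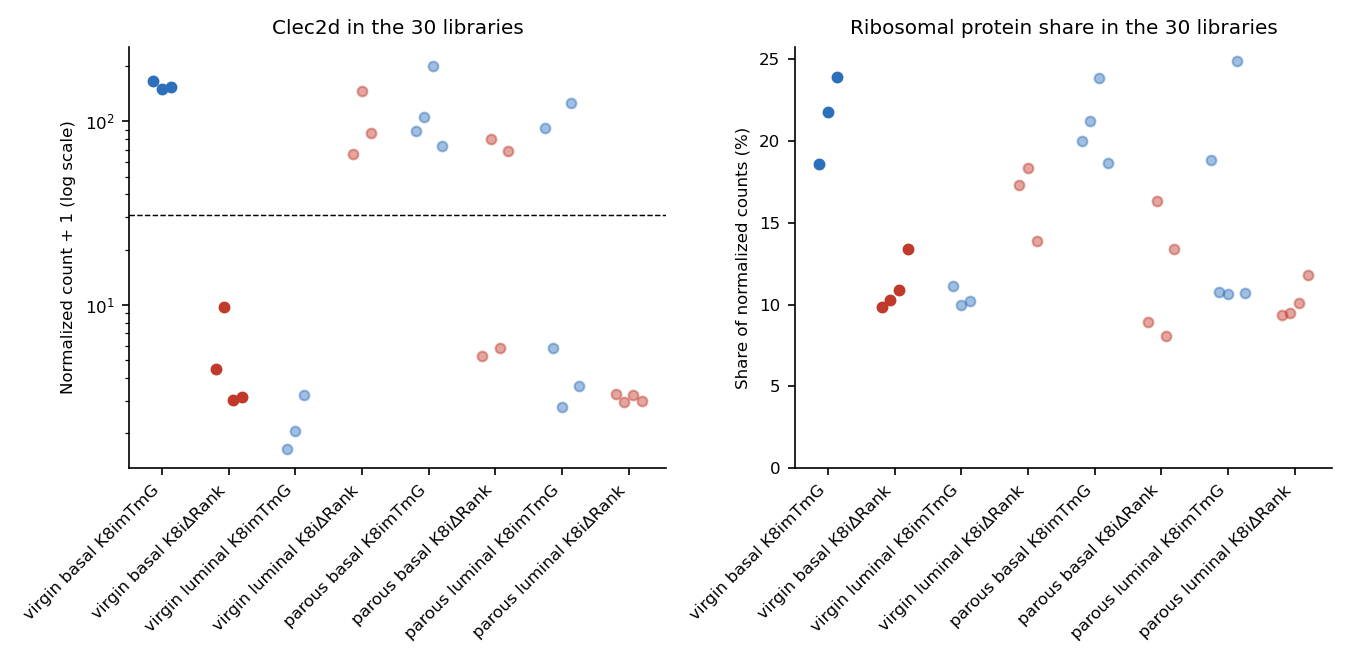
Clec2d (normalized count + 1, log scale, dashed line at the limit of 30) and the share of normalized counts in 82 ribosomal protein genes (%), 1 point per library, by group, with K8imTmG in blue and K8iΔRank in red. The virgin basal libraries (solid points) fall on opposite sides by genotype, and the ribosomal share is 9.86% to 13.4% in K8iΔRank against 18.6% to 23.9% in K8imTmG.

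The share of the table taken by ribosomal protein genes moved with the split. It was 9.86%, 10.2%, 10.9% and 13.4% in K8iΔRank libraries and 18.6%, 21.8% and 23.9% in controls (11.1% ± 1.59, SD, n = 4, against 21.4% ± 2.66, n = 3). Genes with a canonical transcript under 1000 bases held 9.34% to 11.7% of counts in K8iΔRank and 16.8% to 19.9% in K8imTmG libraries. Neither pair of groups overlapped. In a two-sided exact permutation test each gave p = 0.0571, the smallest that 4 against 3 libraries allow (0.0667 adjusted over 7 library measures). Over the whole series the ribosomal share was 8.05% to 13.4% on the low side and 13.4% to 24.9% on the high side. The part of depth and of the split in the differences below was not tested within these 7 libraries.

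Between the genotypes, 954 of 10616 genes tested passed an adjusted p of 0.05 in limma (8.99%), with 453 higher (4.27%) and 501 lower (4.72%) in K8iΔRank basal cells. The difference was 1 or more on the log2 scale, in either direction, for 807 of the 954 genes. The median over all tested genes was 0.06. Libraries of the 2 groups did not overlap for 2999 genes (28.2% of those tested) and for 952 of the 954 called. The called number moved with the libraries: it was 281 without K8iΔRank replicate 4, 596 without K8iΔRank replicate 1, 364 without K8imTmG replicate 2 and 368 without K8imTmG replicate 3. With both shallow controls removed, a lone control assumed to vary like the other libraries gave 0 calls and 1818 genes at an unadjusted p under 0.05, against 3111 with all 7 libraries. The balance of directions also depended on the method, with 47.5% of calls higher here, 30.7% of 674 in voom, and 83.7% of 1212 after thinning to a common total, which moved the median of all genes to 0.40.

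The lowest p-values belonged to genes that were lower in K8iΔRank basal cells. Tnfrsf12a (chromosome 17, 23894416 to 23896468) encodes Fn14, the receptor of the cytokine Tweak and an activator of NF-κB. It was read at 38.1, 55.8, 50.8 and 66.6 in K8iΔRank and at 550.1, 587 and 533 in K8imTmG libraries, so every control was above every K8iΔRank library, 10.6-fold on the scale used (−3.40 ± 0.23, adjusted p = 0.000468). Lamtor2 (chromosome 3, 88457115 to 88460381), a subunit of the lysosomal Ragulator complex that docks mTORC1, was at 38.1, 31.01, 35.9 and 46.2 against 282, 231 and 315 (−2.84 ± 0.24, adjusted p = 0.00151). Clec2d (chromosome 6, 129157577 to 129163497), with the values given above, differed by −5.12 ± 0.46. These 3 genes, H2-Q4 and Ndufb4 are also on a list of markers of the split from an earlier analysis of the same files, and all 10 genes on that list were lower here. The list was chosen on these samples and is not independent evidence.

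The other 9 leading genes on the lower side had no overlap between groups either, which the choice of leading genes required. Over all tested genes 28.2% had no overlap. The snoRNA host genes Snhg3 (46.2, 57.1, 56.9 and 30.1 in K8iΔRank, 355, 347 and 239 in K8imTmG) and Gas5 (1086, 1047, 1069 and 1318 against 3393, 5468 and 5765) differed by −2.72 ± 0.28 and −2.08 ± 0.24. Both had all 4 K8iΔRank libraries under the lowest control. Cops9, a subunit of the COP9 signalosome, was at 166, 150.1, 139 and 194 against 623, 570.4 and 538 (−1.83 ± 0.20). Sertad3, a transcriptional coregulator of E2F targets, was at 20.8, 27.3, 21.7 and 23.6 against 161, 124 and 97.8 (−2.38 ± 0.27). Ndufb4, a subunit of respiratory complex I, was at 30.01, 63.9, 75.2 and 46.2 against 270.0, 347 and 353 (−2.64 ± 0.32), again with no overlap. The ribosomal protein gene Rpl37a was at 1880.0, 1741, 1823 and 2228 against 6019.9, 6679 and 7825 (−1.83 ± 0.21) and the class I gene H2-Q4 at 34.6, 39.1, 31.8 and 16.1 against 175, 223 and 277 (−2.89 ± 0.33). Ribosomal protein genes have processed copies and H2-Q4 has close relatives in its cluster, so the assignment of their reads is uncertain. Tatdn1, a putative deoxyribonuclease gene, and the mitochondrial mt-Atp8 completed the 12, at −2.16 ± 0.24 and −1.72 ± 0.20. All 12 had adjusted p-values of 0.00585 or lower and kept their call in each of the 7 fits that left out 1 library.

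The 12 leading genes on the higher side in K8iΔRank basal cells were likewise chosen to have no overlap between groups. Ttc28 (chromosome 5, 111027623 to 111437646), a large tetratricopeptide protein of the spindle midzone, was at 432, 368, 412 and 413 in K8iΔRank and 161, 124 and 141 in K8imTmG libraries (1.52 ± 0.19, adjusted p = 0.00585). Mfge8 (chromosome 7, 78783515 to 78798825), the milk fat globule protein that bridges apoptotic cells and integrins, was at 2298, 2472, 2236 and 1875 against 878, 707 and 603, 3.06-fold higher (1.61 ± 0.21, adjusted p = 0.00585). In both genes the lowest K8iΔRank library was above the highest control. Bnip2, a Bcl2-interacting scaffold, was at 485, 389, 399.6 and 485 against 161, 128 and 86.9 (1.84 ± 0.24). Oxct1, the enzyme that starts ketone body use, was at 996, 873, 789 and 1110.5 against 294, 397 and 250.0 (1.60 ± 0.22). Parm1 was at 494, 327, 351 and 476 against 125, 124 and 158 (1.58 ± 0.22) and the E3 ligase gene Rnf149 at 163, 229, 212 and 144 against 60.3, 53.7 and 38.04 (1.86 ± 0.26). Suz12, a core subunit of the Polycomb complex that methylates histone H3, was at 437, 224, 224 and 343 against 68.9, 90.9 and 81.5 (1.87 ± 0.28), with replicates 1 and 4 above replicates 2 and 3. Il4ra, a receptor chain for interleukin-4, was at 160.4, 164, 158 and 145 against 68.9, 45.5 and 43.5 (1.59 ± 0.23).

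The other 4 of the 12 leading genes rested on few control reads. Map3k3, a kinase upstream of Erk5, was at 111, 54.6, 64.3 and 97.7 against 17.2, 12.4 and 10.9 (2.48 ± 0.34, 17 control reads in all). Nkd2, an inhibitor of Dishevelled in Wnt signalling, was at 94.6, 228, 179 and 109.5 against 18.7, 16.5 and 32.6 (2.67 ± 0.37, 23 reads), and K8iΔRank replicates 2 and 3 were its highest libraries. DNA ligase 1 (Lig1) was at 193, 230.1, 138 and 166 against 20.1, 49.6 and 10.9 (2.95 ± 0.44, 28 reads), and the LIM protein gene Fhl3 at 50.8, 60.2, 54.9 and 41.9 against 12.9, 4.13 and 5.43 (2.77 ± 0.41, 11 reads, of which 1 each in replicates 2 and 3). Even so, these 12 genes had adjusted p-values of 0.00585 to 0.00764, and all kept their call when any single library was left out.

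**Figure D2:**
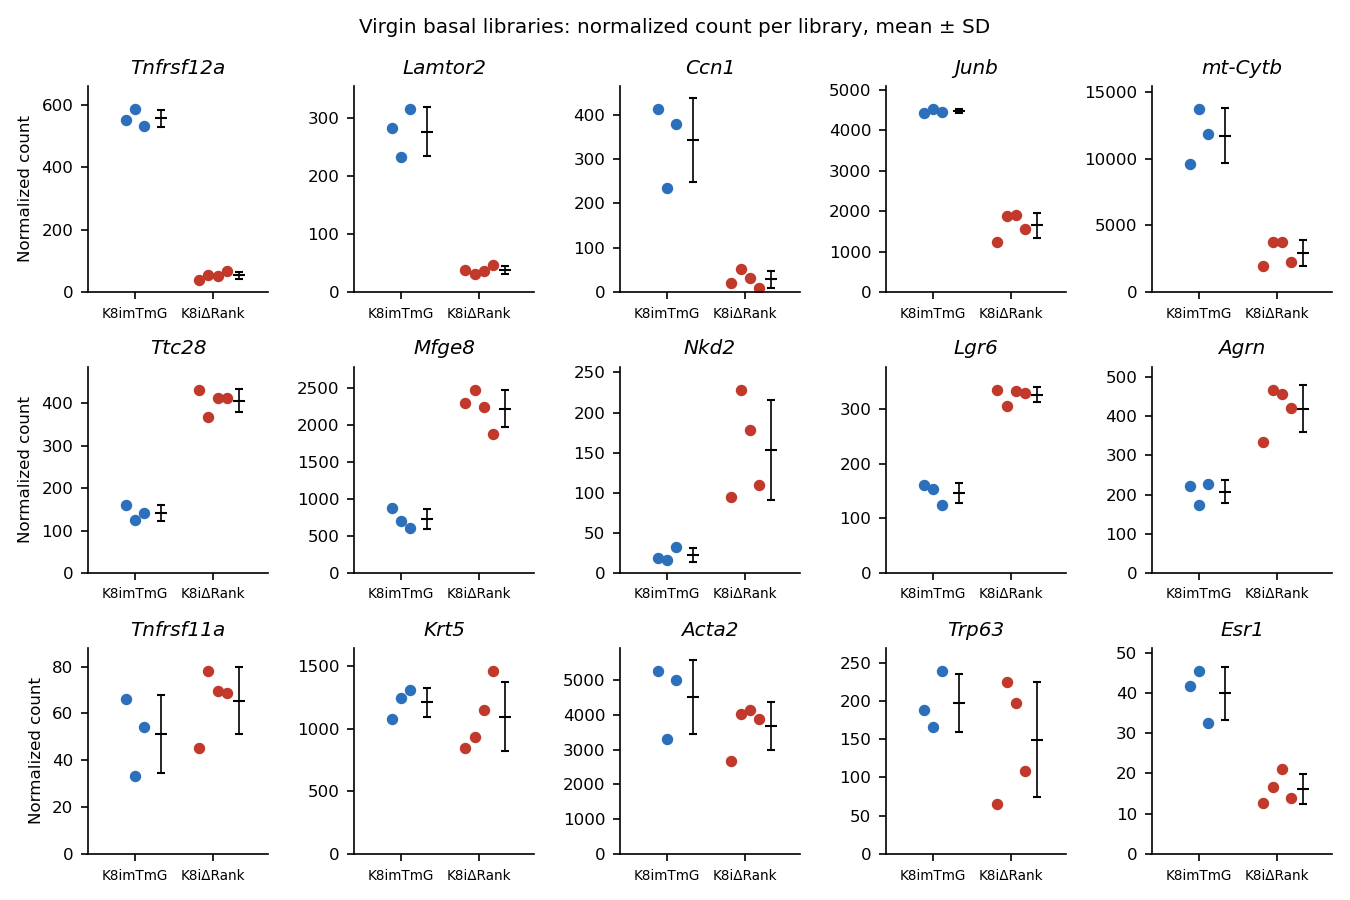
Normalized counts of 15 genes in each virgin basal library (blue, 3 K8imTmG; red, 4 K8iΔRank), with the mean and SD beside the points. The groups are apart for the genes of the top 2 rows and for Esr1, and overlap for Tnfrsf11a, Krt5, Acta2 and Trp63.

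Of 45 tested genes of the Rank and NF-κB pathway, none was called higher and 3 were called lower, beside 4.27% and 4.72% over all genes, and their median difference was 0.12 against 0.06 over all genes. Among receptors, Tnfrsf12a was the one called, as given above. Tnfrsf11b, which encodes the Rankl decoy osteoprotegerin, was at 11.5, 81.9, 50.1 and 19.3 in K8iΔRank and 43.1, 37.2 and 16.3 in K8imTmG libraries, a wide spread within each group. No adaptor (8 tested), IκB kinase or upstream kinase (6) or NF-κB subunit (5) passed the test. The closest subunit was Rela at 1.17 ± 0.34 (adjusted p = 0.0589). Nfkbia, the inhibitor IκBα that NF-κB itself induces, was at 1425, 1684, 1949 and 1813 against 2958, 3455 and 3646, below every control in all 4 K8iΔRank libraries (−0.97 ± 0.21, adjusted p = 0.0233). Of 13 targets, Sod2, the mitochondrial superoxide dismutase, was called, at 73.9, 171, 158 and 106 against 260.0, 318 and 266 (−1.21 ± 0.30, adjusted p = 0.0365). The chemokine gene Cxcl1 had values of 6.92, 133, 71.8 and 21.5 against 477, 198 and 136 and missed the threshold (adjusted p = 0.0717). The call of Nfkbia was lost in 3 and that of Sod2 in 5 of the 7 fits that left out 1 library. After thinning to a common total 1 gene of the list was lower and 3 were higher, beside 198 lower and 1014 higher of 10616 over all genes.

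Wnt signalling, which sustains the basal compartment, had 36 genes tested, with 4 called higher and 1 lower (4.27% and 4.72% over all genes) and a median of −0.22 (0.05 after thinning to a common total, where all genes had 0.40). Of 16 receptors and co-receptors 15 were negative in sign, beside 4996 of 10616 over all genes. The groups did not overlap for 5 of the 16, beside 28.2% over all genes. Fzd1 was called, at 5.77, 15.5, 11.5 and 3.22 in K8iΔRank and 57.5, 24.8 and 43.5 in K8imTmG libraries (−2.21 ± 0.55, adjusted p = 0.0369), on 54 control reads. The single positive one was Lgr6, a receptor of R-spondins, at 335, 306, 333 and 329.7 against 161, 153 and 125 (1.16 ± 0.19, adjusted p = 0.00914), and its call stood in each of the 7 fits with a library left out. The repressor Tcf7l1 was at 297, 260.5, 264 and 324 against 108, 119.9 and 174 (1.12 ± 0.22), the β-catenin kinase Gsk3b at 473, 421, 405 and 512 against 269, 252 and 277 (0.76 ± 0.18), and Tcf7l2 differed by 0.71 ± 0.19. None of the 3 targets tested was called. Gsk3b lost its call in all 7 of those fits and Fzd1 in 5.

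In the other signalling lists the counts stand beside the 4.27% higher and 4.72% lower over all genes. In the Notch pathway 1 of 21 genes was called, on the higher side, and receptors, ligands and targets had none. In the ErbB pathway 2 of 13 genes were called higher and 1 lower. The receptor Egfr was lower, at 70.4, 167, 161 and 109.5 against 312, 236 and 609 (−1.56 ± 0.38, adjusted p = 0.0363). The feedback regulators Spred1 (0.70 ± 0.19) and Lrig3 (0.99 ± 0.27) were higher. No ErbB ligand was called. Of 30 Tgf-β and Bmp genes, 2 ligands were higher and 3 targets lower. Bmp7 was at 212, 234, 216 and 206 against 144, 70.3 and 97.8 (1.12 ± 0.25), and Tgfb2 differed by 1.20 ± 0.30. The target Ccn2, a matricellular growth factor, was at 28.9, 201, 237 and 27.9 in K8iΔRank and 1244, 649 and 1864 in K8imTmG libraries (−3.84 ± 0.77, adjusted p = 0.0189), with replicates 1 and 4 well below replicates 2 and 3. Id3, a Bmp-induced inhibitor of helix-loop-helix factors, was at 142, 194, 173 and 188 against 302, 318 and 309.7 (−0.84 ± 0.20). No receptor (9 tested) or Smad (7 tested) passed. Of these, Bmp7, Ccn2, Id3 and Egfr each lost the call in at least 3 of the 7 fits without a library, and Spred1 and Lrig3 in all 7.

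Of 37 genes of the basement membrane and its integrins, 5 were called higher in K8iΔRank basal cells and none lower (4.27% and 4.72% over all genes), with a median of 0.41 against 0.06. Agrin (Agrn), a heparan sulfate proteoglycan of the basement membrane, was at 334, 468, 457 and 421 in K8iΔRank and 221, 174 and 228 in K8imTmG libraries (1.01 ± 0.21, adjusted p = 0.0208). Plectin (Plec), the hemidesmosomal linker, was at 171, 172, 167 and 163 against 87.6, 90.9 and 114 (0.79 ± 0.20) and the integrin gene Itgav at 309, 218, 238 and 278 against 159, 153 and 125 (0.83 ± 0.21). Col18a1 was also called (0.998 ± 0.27). In all of Agrn, Plec and Itgav the 2 groups were apart. The number of called genes was 0 without K8imTmG replicate 2 and 1 without K8imTmG replicate 3, K8iΔRank replicate 3 or K8iΔRank replicate 4. Under quantile normalization it was 9, beside 1071 of 10616 over all genes.

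The contractile apparatus held 3 calls. Of 30 genes 2 were higher and 1 lower, beside 4.27% and 4.72% over all genes, with a median of 0.30, and no actin or myosin gene (9 tested) was among them. Acta2, smooth muscle actin, was at 2664, 4025, 4158 and 3889.9 against 5273, 3307 and 5005 (−0.29 ± 0.27, adjusted p = 0.497). Rock1, a kinase that promotes contraction, was at 739.8, 622, 587 and 719.6 against 401, 306 and 359 (0.91 ± 0.19, adjusted p = 0.0226), and the actin nucleator gene Lmod1 at 1156, 487, 477 and 731 against 228, 335 and 250.0 (1.31 ± 0.32). Tropomyosin 4 (Tpm4) was lower, at 515, 747, 768 and 592 against 1165, 1029 and 1380.2 (−0.87 ± 0.22). All 3 lost their call without K8iΔRank replicate 4, K8imTmG replicate 2 or K8imTmG replicate 3. After thinning to a common total 10 genes of the list were called higher, beside 1014 of 10616 over all genes.

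Immediate early and heat shock genes, which respond within minutes to dissociation and other stress, had 7 of 38 called lower and 1 higher (4.72% and 4.27% over all genes). Their median was −0.29. After thinning to a common total the median was 0.12, with 2 lower and 2 higher. Over all 10616 genes thinning gave 198 lower and 1014 higher, with a median of 0.40. Ccn1, a serum- and Yap-responsive matricellular gene, was at 20.8, 52.7, 31.2 and 8.59 in K8iΔRank and 414, 236 and 380.4 in K8imTmG libraries, with no overlap (−3.77 ± 0.51, adjusted p = 0.00585). The AP-1 subunit Junb was at 1241, 1870.4, 1907 and 1567 against 4439.9, 4534 and 4456, with a narrow range in the controls (−1.46 ± 0.22, adjusted p = 0.00853). The mitochondrial chaperonin gene Hspe1 was at 111, 297, 246 and 178 against 655, 591 and 598 (−1.65 ± 0.31) and Ier5 at 515, 536, 569.6 and 842 against 1382, 1579 and 1174 (−1.18 ± 0.23). Klf4 was the one called higher (1.63 ± 0.39). Ccn1 and Junb kept their call in all 7 fits with a library left out.

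Of 13 genes of MHC class I and antigen processing, H2-Q4 alone was called, and of 16 interferon-stimulated genes 2 were called, both lower (4.72% over all genes). Bst2, or tetherin, was at 28.9, 16.7, 28.4 and 16.1 in K8iΔRank and 157, 161 and 81.5 in K8imTmG libraries (−2.50 ± 0.35, adjusted p = 0.00625). Isg15, a ubiquitin-like modifier, was at 8.08, 30.4, 29.1 and 23.6 against 157, 169 and 43.5 (−2.31 ± 0.57, adjusted p = 0.036), a call lost in 4 of the 7 fits without a library. The other 14 were not called, and the median of the list was −0.03.

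Cell cycle genes had the highest median of the lists with 10 or more tested genes, at 1.13 over 39 genes (32 positive, beside 5620 of 10616 over all genes). Of the 39, 2 were called higher and 1 lower, beside 4.27% and 4.72% over all genes. Of the 40 members in the list, 6, 6 and 10 were at 0 in K8imTmG replicates 1 to 3. In K8iΔRank replicates 1 to 4 the numbers at 0 were 6, 0, 0 and 0. The part of depth in this median was not tested. The summed level of the list was 673, 2951, 2027 and 1170 in K8iΔRank replicates 1 to 4 and 1741, 1467 and 973 in K8imTmG replicates 1 to 3, so the groups overlapped. K8iΔRank replicates 2 and 3 were its highest libraries, and replicate 1 was the lowest of the 7. The proliferation marker Mki67 was at 0, 124, 100.2 and 48.3 against 1.44, 0 and 0 (adjusted p = 0.0876), where 1.44 is 1 read. The replicative helicase subunits Mcm5 (27.7, 78.1, 48.8 and 38.7 against 10.1, 20.7 and 5.43, 1.99 ± 0.49) and Mcm3 (57.7, 120.3, 67.7 and 73.03 against 17.2, 45.5 and 5.43, 2.14 ± 0.58) were called higher, calls lost in 5 and 6 of the 7 fits that left out 1 library. Slbp, the histone mRNA binding protein, was called lower at 51.9, 127, 91.4 and 73.03 against 398, 244 and 255 (−1.83 ± 0.32). No gene of the 21 assigned to G2 and M phase was called. Without K8iΔRank replicates 1 and 4 the list had 7 calls and a median of 2.38. That removal was chosen after the data had been seen. It took out the K8iΔRank libraries with the lowest sums, so a higher K8iΔRank level was built in.

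Mitochondrially encoded and cytosolic ribosomal protein genes had higher shares of called members than the pathway lists above. Over all genes 4.27% were called higher and 4.72% lower. Of 12 genes encoded in the mitochondrial genome 11 were lower in K8iΔRank basal cells (median −1.46), and mt-Co3 missed the threshold (−1.40 ± 0.43, adjusted p = 0.0678). Cytochrome b, mt-Cytb, was at 1948, 3735, 3747 and 2218 in K8iΔRank and 9644, 13764 and 11873 in K8imTmG libraries (−2.06 ± 0.30, adjusted p = 0.00764). The cytochrome oxidase subunits mt-Co1 and mt-Co2 differed by −1.43 ± 0.20 and −1.77 ± 0.24. Of 82 cytosolic ribosomal protein genes, a list added after the values had been seen, 47 were lower and none higher (median −1.24). Rps21 was at 1259, 1973, 2059 and 2473 against 7970.5, 8341 and 8835 (−2.15 ± 0.26), and Rpl12 and Rps25 differed by −2.30 ± 0.29 and −1.82 ± 0.24. Of 75 nuclear subunits of oxidative phosphorylation, added in the same way, 23 were lower and 1 higher (median −0.62). Cox6c was at 698, 869, 844 and 858 against 2132, 2476 and 2635 (−1.56 ± 0.19), Ndufb2 at 91.2, 89.9, 92.8 and 91.3 against 237, 252 and 272 and Uqcr11 at 75.01, 78.8, 91.4 and 111 against 251, 273 and 272. In all of these named genes every control exceeded every K8iΔRank library. Under quantile normalization 6 of the 12 mitochondrial genes (median −0.95) and 22 of the 82 ribosomal genes (1 of them higher, median −0.61) were called, beside 1071 of 10616 over all genes.

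Luminal gene lists were read in the basal cells for carry-over, beside 4.27% called higher and 4.72% lower over all genes. Of 10 tested luminal progenitor and alveolar markers 1 was called, Mfge8, which is higher in K8iΔRank, and the list's median was −0.57. Its sum, most of it Mfge8, was 2594 to 3062 in K8iΔRank and 1114 to 1695 in K8imTmG libraries. The κ-casein gene Csn3 was at 20.8, 22.9, 23.7 and 16.1 in K8iΔRank and 45.96, 57.9 and 16.3 in K8imTmG libraries, against 249 to 2509.8 in luminal libraries, and Csn2 and Elf5 were under the filter. Among 10 hormone-sensing markers the oestrogen receptor gene Esr1 was lower, at 12.7, 16.7, 21.00 and 13.96 against 41.7, 45.5 and 32.6 (−1.27 ± 0.33, adjusted p = 0.0434), a call lost in each of the 7 fits without a library, while the progesterone receptor gene Pgr was at 51.9, 53.95, 41.3 and 61.2 against 61.8, 49.6 and 54.3 (−0.09 ± 0.25). From the study's own lists, 34 genes of alveolar differentiation had 1 higher and 2 lower and 165 genes of a luminal alveolar signature 4 higher and 14 lower. After thinning to a common total the signature had 16 higher and 5 lower, beside 1014 higher and 198 lower of 10616 over all genes. Genes of these lists called in the direct comparison included the complement gene C3 (253, 190.4, 198 and 261 against 86.2, 132 and 97.8, 1.10 ± 0.23), the detoxifying enzyme gene Mgst1 (−1.76 ± 0.31), the tetraspanin gene Tspan8 (−1.89 ± 0.31), the polyamine enzyme gene Sat1 (−2.69 ± 0.49) and the chaperone gene Fkbp11 (−1.15 ± 0.29). The call of Fkbp11 was lost in 6 and that of C3 in 3 of the 7 fits without a library, and Fkbp11 differed by −0.40 with a length trend removed. The erythroid gene Hba-a2, whose near-identical copy makes its reads uncertain, was higher, at 71.6, 81.9, 14.2 and 23.6 against 5.75, 0 and 0 (4.36 ± 0.86, 4 control reads). The part of carried-over blood or luminal RNA was not tested.

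**Figure D3:**
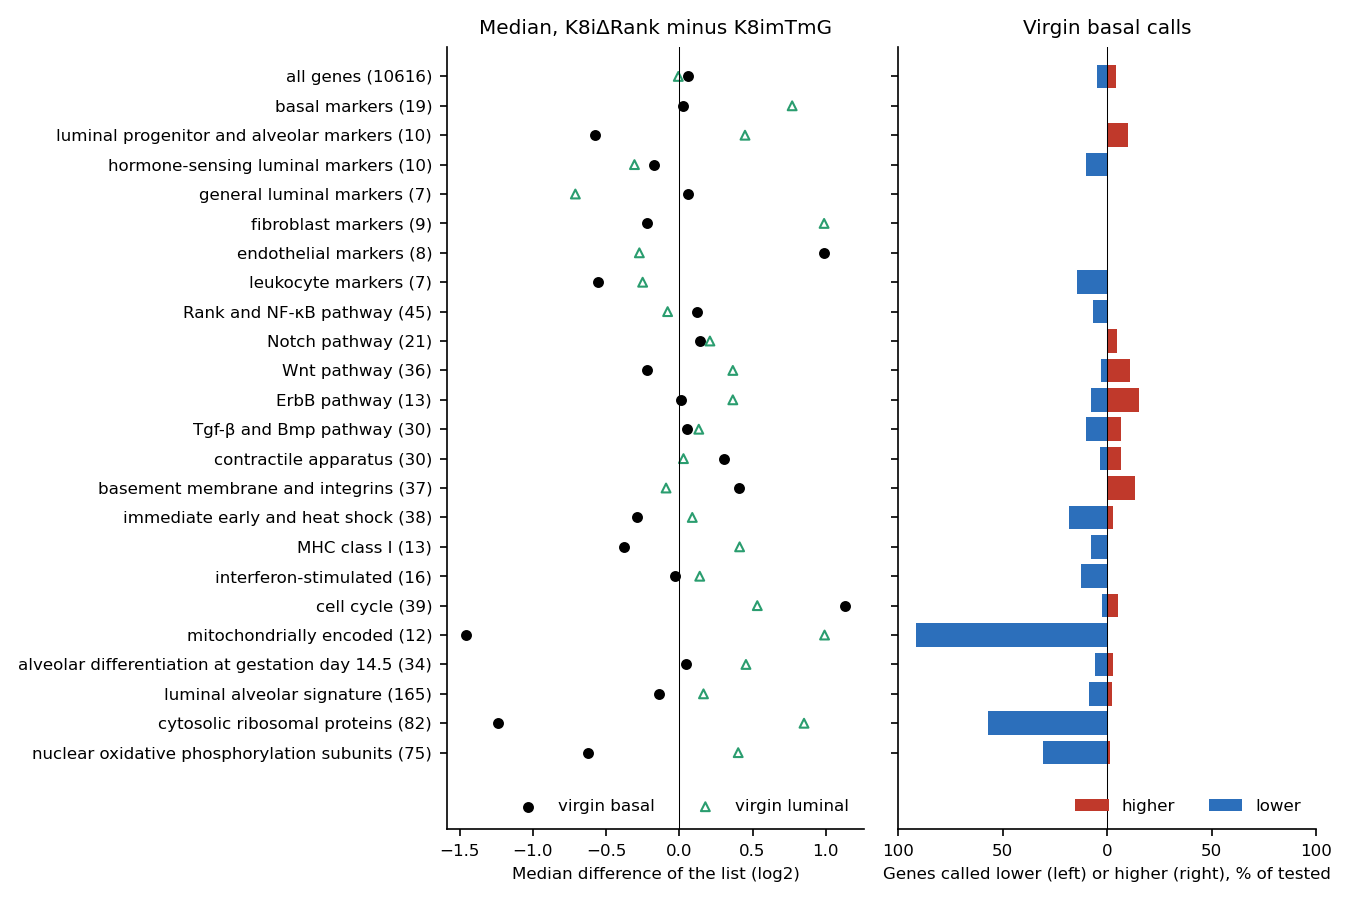
Left, median difference (K8iΔRank minus K8imTmG, log2) of the gene lists shown and of all genes in virgin basal cells (filled circles) and virgin luminal cells (open triangles). Right, share of each list's tested genes (number in brackets) called lower (blue, left) or higher (red, right) in virgin basal cells. Of the lists plotted, the mitochondrial and ribosomal ones lie farthest to the left in basal cells, at −1.46 and −1.24, and to the right of 0 in luminal cells, at 0.99 and 0.85.

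The difference ran with transcript length. Genes called lower had canonical transcripts of 1800 bases in the median (31.4% under 1000), against 4265 for genes called higher (0.887% under 1000) and 3567 for genes not called (4.63%). By bins of length, the median difference was −1.66 for 128 genes under 500 bases, −0.62 for 469 of 500 to under 1000, −0.10 for 1667 of 1000 to under 2000, 0.07 for 3801 of 2000 to under 4000 and 0.19 for 4387 of 4000 or more. Of the shortest genes 38.3% were called lower and none higher, and of the longest 2.05% were lower and 5.49% higher. The Clec2d-low minus Clec2d-high difference within parous basal K8iΔRank libraries, in which genotype is constant, had medians of −1.08 and −0.56 in the 2 shortest bins and 0.14 in the longest. In virgin luminal cells, where the K8iΔRank libraries are on the high side, the same bins gave 1.13, 0.51 and −0.08. After a length trend was removed from each library, a step added once the data had been seen, 651 of 10452 genes were called, 586 of them among the 954. In that fit mt-Atp8 changed sign, to 0.27.

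**Figure D4:**
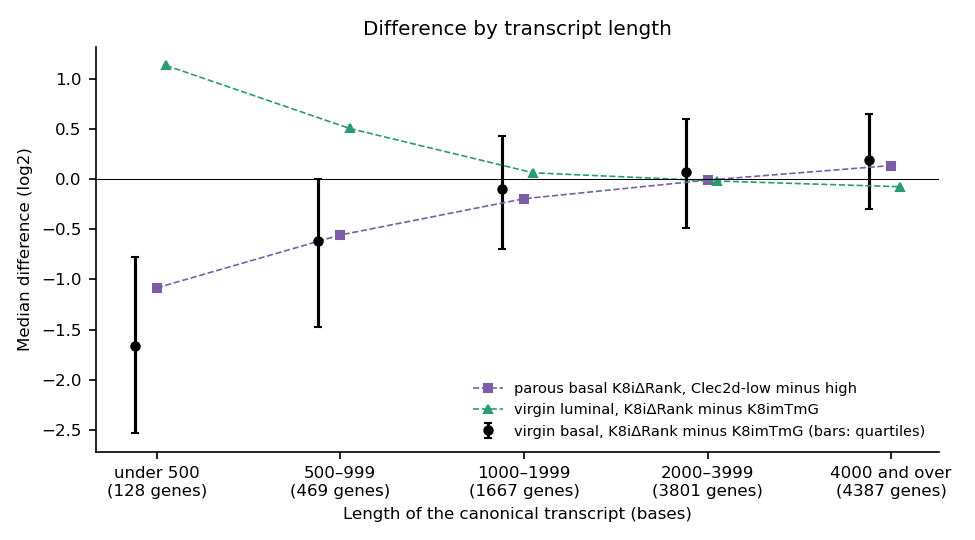
Median log2 difference of tested genes by length of the canonical transcript (bases), for virgin basal cells (black, bars are quartiles over genes), for Clec2d-low minus Clec2d-high parous basal K8iΔRank libraries (squares) and for virgin luminal cells (triangles). Basal and split medians rise from the shortest bin (−1.66 and −1.08) to the longest (0.19 and 0.14), and the luminal medians run the other way (1.13 to −0.08).

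The same genes were then read in libraries that took no part in the comparison. In parous basal K8iΔRank mice, 2 Clec2d-low against 2 Clec2d-high libraries of one genotype, 443 of the 453 genes called higher were also higher on the low side (97.8%), and 485 of the 501 called lower were lower (96.8%). Over all tested genes the matching shares were 74.2% of 5620 positive and 76.5% of 4996 negative genes. Tnfrsf12a differed by −1.73 between those sides, Lamtor2 by −2.63, Ttc28 by 0.95 and Bnip2 by 1.60. In parous luminal controls, 3 low against 2 high, the shares were 91.6% and 95.6%, against 72.5% and 69.6% over all tested genes. In virgin luminal cells, where genotype and side are reversed, 29 of the 453 (6.40%) and 16 of the 501 (3.19%) kept their sign by genotype, against 27.1% of positive and 25.5% of negative genes over all tested. There Tnfrsf12a was higher in K8iΔRank by 2.22, Lamtor2 by 2.59 and Junb by 1.29, while Ttc28 was at −1.23 and Mfge8 at −0.85. Between parous basal libraries that were all on the high side (2 K8iΔRank, 4 K8imTmG), genotype varied and the Clec2d side did not. Ribosomal share still ran with genotype there, at 16.4% and 13.4% in K8iΔRank against 18.7% to 23.9% in K8imTmG libraries. So did depth, at 1844364 and 2677273 against 450064 to 1365008 reads. In this set 305 of the 453 (67.3%) and 397 of the 501 (79.2%) had the sign of the virgin genotype difference. Over all tested genes the matching shares were 61.9% of positive and 52.9% of negative genes. All 24 leading genes had the sign of the low side in parous K8iΔRank basal cells and the opposite sign by genotype in virgin luminal cells. Clec2d is among the 24 and defines the sides, so its signs there were fixed in advance. Tnfrsf12a, Lamtor2, H2-Q4 and Ndufb4 are on the list of split markers that was chosen on these samples. None of these genes is independent evidence. Between Clec2d-high parous basal libraries, 9 of 12 leading higher and 12 of 12 leading lower genes had the sign of the virgin genotype difference. Across the 10616 genes Pearson's r with the basal difference was 0.68 for the split in parous K8iΔRank basal cells and −0.61 for the luminal genotype difference, given as descriptions across genes, which are not independent and share depth and transcript length within libraries.

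**Figure D5:**
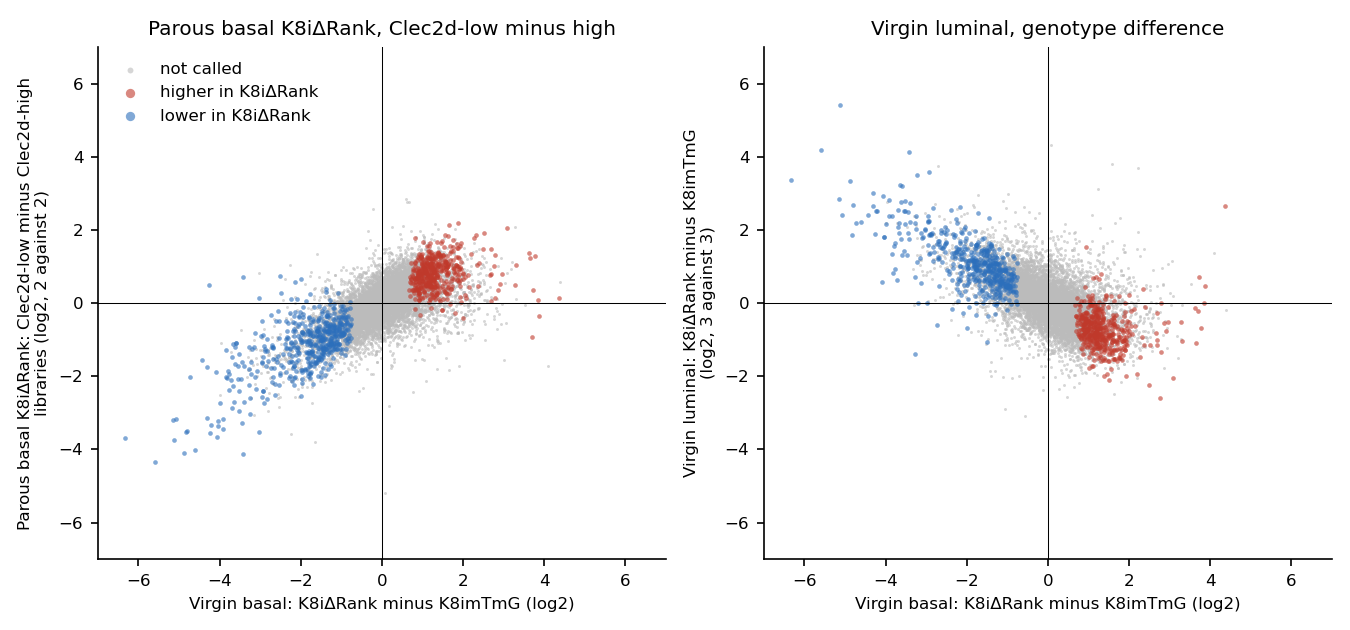
Each point is a gene, with the virgin basal difference (K8iΔRank minus K8imTmG, log2) on the x axis and, on the y axis, the Clec2d-low minus Clec2d-high difference in parous basal K8iΔRank libraries (left) or the virgin luminal genotype difference (right). Genes called higher (red) and lower (blue) lie along a rising line on the left and a falling line on the right, and 424 of 453 and 485 of 501 have the opposite sign in luminal cells.

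Further fits bear on genotype with the split in view. With the Clec2d side as a term over all 15 basal libraries, limma called 0 of 10607 genes, with 288 at an unadjusted p under 0.05, and edgeR on reads also called 0, with 469. That fit takes the side effect from the 4 parous K8iΔRank libraries, and its median standard error was 0.57 against 0.37 in the direct comparison, so it is the less precise of the 2. It also assumes that the side acts alike in all groups, which was not tested. Ribosomal share was 16.4% and 13.4% in the Clec2d-high parous K8iΔRank libraries, against 18.6% to 23.9% in the virgin basal controls. The lowest p was that of Tnfrsf12a, at −1.66 ± 0.35, unadjusted p = 0.000229 in limma (adjusted p = 1). The median over the 453 genes called higher went from 1.23 to 0.46 and over the 501 called lower from −1.68 to −0.61. Fitted values of single genes were 0.85 ± 0.39 for Mfge8, 0.56 ± 0.34 for Ttc28, 1.90 ± 0.66 for Nkd2, −1.35 ± 0.52 for Esr1 and −0.21 ± 0.34 for Lamtor2.

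The interaction of genotype with stage in basal cells called 0 of 10607 genes in limma (1082 at an unadjusted p under 0.05) and 0 in edgeR (1017). No gene was thus shown to differ between genotypes to another extent in virgin than in parous mice. The Clec2d sides part the virgin groups fully but the parous groups only in part, so this contrast still holds part of the split. Its median standard error was 0.49, against 0.37 in the direct comparison. The 0 calls do not show that the difference was alike at both stages. The genotype difference averaged over basal and luminal virgin libraries, in which each genotype holds both sides, called 1 of 10886 genes (0.00919%, 632 at an unadjusted p under 0.05). It was Ehbp1l1, a regulator of membrane traffic, at −1.98 ± 0.26 (adjusted p = 0.026). In basal cells Ehbp1l1 was at 36.9, 34.1, 31.8 and 16.1 in K8iΔRank and 66.1, 66.1 and 48.9 in K8imTmG libraries (−1.05 ± 0.34, adjusted p = 0.0791), and its luminal difference was −2.91. The average joins basal cells that kept Rank by design with luminal cells that lost it. A difference in basal cells alone is diluted in it, and differences of opposite sign cancel. The side cancels only if it acts alike in both lineages, which was not tested. The genotype difference itself differed between basal and luminal cells for 2397 of 10886 genes (22%), 862 of the 954 among them, and 9 of the 954 were not in that fit. The virgin basal difference that chose the 954 is part of this contrast, so their share in it is partly built in. In both lineages genotype and the Clec2d side cannot be told apart, with the sides reversed between them. The luminal libraries share 5 mice with the basal ones.

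A count chosen after the values had been seen took the called genes with the same sign both in virgin luminal cells and between Clec2d-high parous basal libraries (2 K8iΔRank, 4 K8imTmG). There were 26 of 954, and with at least 0.5 in both 5 remained, 3 higher and 2 lower. Tenm2, a teneurin adhesion receptor, was at 272, 359, 362 and 313 in K8iΔRank and 148, 116 and 141 in K8imTmG libraries (1.27 ± 0.20, adjusted p = 0.00914), with 0.65 in luminal and 1.76 in Clec2d-high parous basal cells. Mbp, whose myelin basic protein locus also gives the ubiquitous golli transcripts, was at 115, 60.8, 72.5 and 74.1 against 461, 1265 and 245 (−2.72 ± 0.47, adjusted p = 0.0116), with −0.59 and −1.07. Amer2, a regulator of Wnt signalling that binds Apc, was at 62.3, 58.3, 61.6 and 54.8 against 34.5, 24.8 and 32.6 (0.94 ± 0.25, adjusted p = 0.0479), with 1.52 and 0.70. Hba-a2, with the values above, and the processed pseudogene Gm5384 (−2.002 ± 0.51), whose reads may come from a gene of like sequence, were the other 2. This choice by sign used the values themselves and carries no test. Ribosomal share and depth also ran with genotype in those Clec2d-high libraries, as given above.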

How the data were processed

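Total RNA of sorted cells was made into QuantSeq 3′ FWD libraries with unique molecular identifiers. Per the labels and methods, the authors trimmed reads (BBDuk), removed duplicates (UMI-tools), aligned to GRCm39 with Bowtie2, used SAMtools, BEDtools and FastQC 0.11.9, and kept a gene where 25% of samples or more exceeded 10 normalized counts. The counting tool was not given in the sources used here. The deposited signal is the count of a gene divided by a DESeq2 size factor. Whole reads were recovered for 100% of non-zero values (within 0.01), so depth is the sum of these reads for the 11137 genes in the table. The floor of 3 reads covers counting error only.

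Groups follow the labels. Genes above 10 in at least 2 of 7 libraries were tested with limma 3.58.1 (R 4.3.3) on log2(normalized count + 1), with Benjamini-Hochberg adjustment and calls at 0.05. A fold on this scale understates changes of low genes. The p-values of the basal fits rest on spread between libraries, each from a different mouse, and this spread includes counting error. The fits of the 13 virgin libraries hold 5 mice with both a basal and a luminal library. These were treated as independent except where the mouse was a block. Alternatives on reads used edgeR 4.0.16 and DESeq2 1.42.0. Scripts were tested on simulated data. Lengths and coordinates came from a GENCODE annotation of GRCm39, matched by symbol for 10964 of 11137 genes. Named genes were, in each direction, up to 12 with the lowest adjusted p, no overlap and a mean of at least 30 in the higher group, up to 4 called members of each list, and a set of markers; Lyz2, Rela, Cxcl1, Tnfrsf11b, Tcf7l2, Tgfb2, Col18a1, Klf4, Mki67, mt-Co3, Tnfsf11 and the genes chosen by sign were added after their values were seen. A few genes that this rule names are not reported here. The members and lists were chosen with earlier results of these data known.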

Additional observations from a re-analysis of the deposited data

Results flagged for a closer look

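A library stood apart from the other 3 K8iΔRank libraries in 4 of 112 values examined, where chance alone places about 1 in 20 there. These were Gas5 in K8iΔRank replicate 4 (1318 against 1047 to 1086), Ier5 in K8iΔRank replicate 4 (842 against 515 to 569.6) and Cox6c in K8iΔRank replicate 1 (698 against 844 to 869). The fourth was the summed ribosomal protein genes in K8iΔRank replicate 4, at 190360.0 normalized counts against 133718 to 142524.

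The genotype difference differed between basal and luminal virgin cells for 2397 of 10886 genes in limma, a contrast added after the data had been seen, and 63 of the genes named for basal cells were among them. Values are the basal minus the luminal difference on the log2 scale, and in both lineages genotype and the Clec2d side cannot be told apart. The virgin basal difference by which the leading genes were chosen is part of this contrast. For the 12 leading genes on the higher side in basal K8iΔRank cells, the fitted interactions were Ttc28 2.74, Mfge8 2.46, Bnip2 3.26, Map3k3 4.72, Nkd2 3.48, Oxct1 2.62, Rnf149 3.04, Parm1 2.54, Il4ra 2.18, Lig1 3.47, Fhl3 5.36 and Suz12 3.10. For the 12 leading genes on the lower side they were Tnfrsf12a −5.62, Lamtor2 −5.43, Clec2d −10.54, Snhg3 −4.41, Cops9 −2.86, Tatdn1 −3.17, mt-Atp8 −3.37, Sertad3 −4.94, H2-Q4 −4.79, Gas5 −3.63, Rpl37a −2.99 and Ndufb4 −4.54. In the signalling lists the values were Nfkbia −1.39, Sod2 −2.27, Lgr6 1.39, Tcf7l1 2.26, Gsk3b 0.95, Egfr −2.47, Spred1 1.05, Ccn2 −5.18 and Id3 −2.07. For contractile, basement membrane and integrin genes they were Rock1 1.69, Tpm4 −1.81, Agrn 0.96, Plec 1.72 and Itgav 2.09. For stress, interferon and cell cycle genes they were Ccn1 −4.71, Junb −2.75, Hspe1 −3.07, Ier5 −2.02, Bst2 −4.50, Isg15 −4.11, Slbp −2.54 and Mcm3 2.77. For mitochondrial, ribosomal and respiratory genes they were mt-Co2 −2.75, mt-Co1 −2.45, mt-Cytb −3.41, Rps21 −3.43, Rpl12 −3.57, Rps25 −2.96, Cox6c −2.67, Ndufb2 −2.19 and Uqcr11 −2.66. For genes of the alveolar lists they were Mgst1 −3.37, C3 2.82, Fkbp11 −2.28, Tspan8 −3.20 and Sat1 −3.93. The markers Krt5, Acta2 and Csn3 passed as well, without a call in basal cells, at Krt5 −1.48, Acta2 −1.85 and Csn3 −2.89.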

How the results depend on the processing

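The 954 calls came to 870 to 1173 with edgeR or DESeq2 on reads, 674 with voom, 899 to 1107 with other pseudocounts, 930 without the filter, 974 with a mean of at least 50, 1071 with quantile normalization, 1339 with array weights and 1212 after thinning to a common total. They moved further to 1803 with 15 basal libraries and 2161 with 30 libraries in one fit. Among alternatives chosen after seeing the data they came to 541 after thinning with the deposited totals kept, 620 without K8iΔRank replicates 1 and 4 (30.8% higher), 651 with the length trend removed and 0 without K8imTmG replicates 2 and 3. Leaving out 1 library gave 281 to 953, with 29.5% (without K8iΔRank replicate 4) to 50.9% of calls higher. Called members of the pathway and function lists numbered 50, and came to 81 with array weights, 76 with 30 libraries, 31 with the length trend removed, 0 without K8imTmG replicates 2 and 3, and 18 to 50 with 1 library left out. With the length trend removed mt-Atp8 turned to 0.27 (adjusted p = 0.55, limma). The cause of these moves was not tested. The average over lineages called 0 genes with a mean of at least 50 and 0 to 5 with 1 library left out. The stage interaction and the fit with the Clec2d side called 0 genes in each fit with a library left out.

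No paired analysis was possible because the virgin basal groups come from different mice. With the mouse as a replicate block over both lineages, the average called 1 gene and the lineage contrast 2514. The shallow controls (340445 and 437873 reads) limit low genes, since 3 reads in replicate 3 are worth 16.3 normalized counts.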
